A study of Mus musculus with 16 samples.

Results

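Complement is a cascade of plasma and membrane proteins that tags surfaces, recruits immune cells and can perforate cell membranes. Its routes of activation meet at the cleavage of C3, and inhibitors in plasma and on host cells hold each step in check. Most plasma C3 comes from the liver, but tubular epithelium and macrophages of the kidney also transcribe it, and podocytes and endothelium carry membrane inhibitors of complement. The 8 genes followed here were C3 and C4b, which make the central components, Cfb, the protease of the alternative pathway, the inhibitors Cfi, Cd55, Cd59a and Serping1, and C3ar1, the receptor for the C3a fragment. They were picked by gene symbol, as 8 of 31053 features, from the level of each in every cell class, genotype and age. Differences between genotypes and between ages in these 8 genes are therefore described without a test. Counts of their calls between genotypes stand only in the closing section on processing, and support nothing. Tests are given for sex and for genes outside the 8.

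Kidney cells were sequenced one by one from BTBR ob/ob mice (DN), whose leptin gene is mutated and which develop obesity and diabetes, and from BTBR +/+ mice (control). Both genotypes share the BTBR background. Papillae were removed and the proximal tubule (PT) was depleted in part on a Percoll gradient before dissociation, so that the suspension was enriched for glomeruli, and each library came from both kidneys of 1 mouse. The 16 libraries formed 8 groups of 2 by genotype, sex and age (6 or 12 weeks).

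The libraries held 1267078476 unique molecular identifiers (UMIs, counts of single captured transcripts) in 116439 barcodes. Replicate 1 of each of the 4 female groups was shallower (10510855 to 21728793 UMIs) and used another cell barcode list than the other 12 libraries (83410397 to 125551519 UMIs), and all male libraries were among the 12. Shallow and deeper libraries are named here by these totals. By barcode the lowest median of the 16, 698 UMIs, was in a deeper library, control male replicate 2 at 6 weeks. The medians of the shallow libraries were 2061.5 to 3705.5. No pair of libraries shared more than 55 barcodes. The leptin transcript itself, with 13 UMIs over 16 libraries, was too rare to check the genotype labels. After filtering, 78521 cells fell into 16 classes that were named from markers and are written X-like, and 6675 cells stayed in unnamed clusters. UMIs were summed per library and class and are given as UMIs per 1000000 of that sum (CPM). After the depletion 17477 PT-like cells remained in which C3 could be followed.

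In PT-like cells C3 was low in every control mouse and several times higher in most DN mice. The gene (ENSMUSG00000024164) lies at chr17:57203970-57228136 of GRCm38 on the minus strand, and 9856 of its UMIs, 80.0% of all those kept, came from this class. Its promoter is printed because C3 showed the widest difference between DN and control of the 8 genes. The 250 bases before its start (chr17:57228137-57228386, minus strand, RefSeq sequence on GRCm38.p6) are written 5′ to 3′, with the letters that match a C/EBP pattern in capitals.
C3: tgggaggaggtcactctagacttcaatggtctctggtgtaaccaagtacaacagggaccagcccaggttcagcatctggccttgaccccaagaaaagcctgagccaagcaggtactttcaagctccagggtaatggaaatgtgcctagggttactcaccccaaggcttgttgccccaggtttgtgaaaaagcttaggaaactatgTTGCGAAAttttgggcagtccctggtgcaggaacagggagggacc
The match (TTGCGAAA) lies 45 to 38 bases before the start. Over both strands of 32851 RefSeq promoters of this length, 9.56% held the C/EBP pattern TTGCNNAA, 7.25% a kappaB pattern, 7.02% the GAS pattern TTCNNNGAA, 2.98% the ISRE core and 1.55% the CRE pattern TGACGTCA. The other 4 patterns were not in these letters. Promoters of Cd55, Cd59a and C3ar1 were searched too, and 1 further match, an ISRE core in Cd59a, is printed with that gene. C4b, Cfb, Cfi and Serping1 were not searched.

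At 6 weeks the 4 control libraries held 3.56, 9.21, 21.4 and 5.52 CPM of C3 in PT-like cells (females first), and the 4 DN libraries held 11.6, 35.6, 76.7 and 75.0. At 12 weeks the control libraries held 15.6, 4.51, 5.74 and 4.05 CPM and the DN libraries 34.9, 69.3, 97.4 and 97.8. The 12-week groups did not overlap, whereas at 6 weeks the shallow DN female fell among the controls. Group means were 9.92 ± 8.0 (SD, n = 4) for control and 49.7 ± 31.7 for DN at 6 weeks, and 7.47 ± 5.46 and 74.9 ± 29.8 at 12 weeks. In every one of the 8 pairs of the same sex, age and replicate number the DN library was the higher one. The share of all genes with every pair in 1 direction is not given, here or for the genes below. Of 9032 genes of at least 5 CPM in this class, 1.34% lay higher in all 4 DN than in all 4 control libraries at 12 weeks and 0.853% did at 6 weeks.

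**Figure D1:**
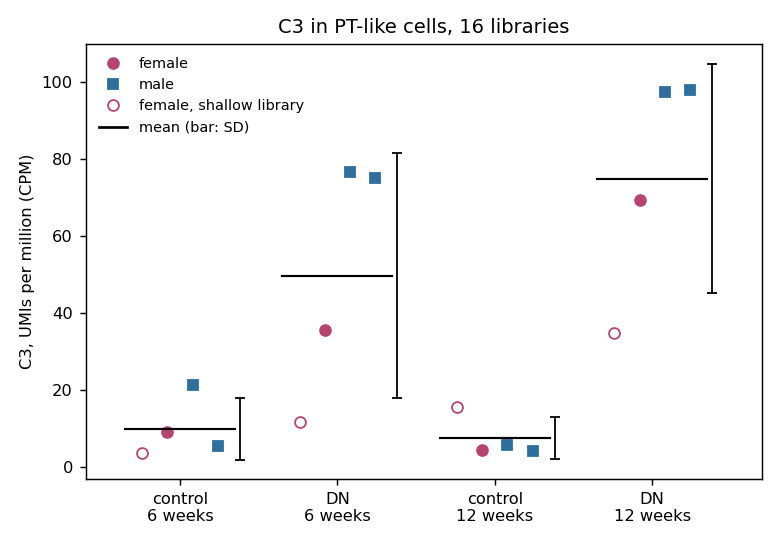
C3 level in PT-like cells (CPM, vertical axis) in each of the 16 libraries, grouped by genotype and age. Points mark single libraries by sex, open symbols the 4 shallow libraries, and lines the group means with SD (n = 4). At 12 weeks the 4 DN libraries lie between 34.9 and 97.8 CPM and the 4 control libraries between 4.05 and 15.6.

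In the fit of all genes with edgeR, the log2 difference of C3 between DN and control was 3.36 ± 0.58 (SE) at 12 weeks and 2.10 ± 0.56 at 6 weeks. With the replicate number as a block these were 3.59 ± 0.45 and 2.39 ± 0.45. Leaving out 1 of the 16 libraries in turn gave 12-week differences from 2.97 to 4.02. In the 12 deeper libraries alone the difference at 12 weeks was 4.11 ± 0.48, and the shallow libraries by themselves went from 15.6 CPM in control to 34.9 in DN at 12 weeks and from 3.56 to 11.6 at 6 weeks.

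More PT-like cells carried C3 in DN mice. The share of PT-like cells with at least 1 C3 UMI averaged 2.57 ± 1.83% in control and 14.3 ± 10.8% in DN mice at 6 weeks, and 2.72 ± 0.911% and 23.9 ± 14.1% at 12 weeks (SD, n = 4). Cells of the DN groups were deeper, with a median of 9499 and 10392 UMIs at the 2 ages against 3459 and 8373.5 in control. Thinned to 1000 UMIs per cell, which left out 1537, 356, 477 and 146 shallower cells of control and DN at 6 weeks and control and DN at 12 weeks, the shares were 0.459 ± 0.277%, 3.21 ± 2.10%, 0.555 ± 0.468% and 5.09 ± 1.77%.

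Free RNA in the droplets can give single UMIs to cells that do not transcribe a gene. The unthinned share was 0.313% in mesangial-like cells (median 4075 UMIs) and 0.307% in glomerular EC-like cells (3464 UMIs), both below the mean of every PT-like group. PC-like cells, closer to PT-like cells in depth (7983 and 8379 UMIs), had 0.552%, and 1.32 ± 1.07% in DN mice at 12 weeks. Thinned, the shares of the 3 classes were 0.0658%, 0.123% and 0.0703%, although glomerular EC-like cells of DN mice at 12 weeks reached 0.456%, close to the thinned PT-like control shares. A C3-positive PT-like cell held 3.90 ± 1.99 C3 UMIs in DN and 3.27 ± 2.22 in control mice at 6 weeks, and 3.96 ± 1.70 and 2.32 ± 0.525 at 12 weeks. These spreads overlapped, cells of DN mice were the deeper ones, and the highest count in 1 cell was 104. The 1% of cells with most C3 UMIs held 35.3 to 83.3% of them in DN and 62.5 to 100% in control libraries at 6 weeks, and 21.4 to 38.6% and 60.0 to 90.2% at 12 weeks, a share that is higher by construction where fewer cells carry C3.

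Within the class, C3 was highest in 1 of 2 clusters rich in transcripts of the first segment of the tubule (S1). The marker sum of Slc5a2, the glucose transporter of that segment, with Slc5a12 and Gatm was 4222 and 4134 CPM in these clusters and 866 and 915 CPM in the other large ones. C3 averaged 110 ± 62.8 CPM over 8 DN libraries and 20.0 ± 21.9 over 8 control libraries in the second S1-rich cluster (3576 cells). In the first (4787 shallow cells, median 1677 UMIs) the means were 52.5 ± 51.2 and 3.16 ± 4.57 CPM, and in the clusters low in S1 transcripts 43.3 ± 28.2 and 6.19 ± 5.56, and 41.6 ± 26.6 and 5.08 ± 3.31. DN was therefore higher on average in each of the 4 large clusters, and the spread between mice within each was wide. Another cluster, of 443 cells from 4 libraries, gave a sum in only 1 library, a control.

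Cells that carried C3 also carried other levels of injury and transport genes than their neighbours in the same cluster. This comparison was chosen after the data were seen, uses cells picked for a C3 UMI and has no test. In the S1-rich cluster with most C3, 8 libraries (7 DN and 1 control) had at least 20 C3-positive cells, 407 cells in all against 1938 without C3, with a median of 18763 and 10596 UMIs. Vcam1, an adhesion molecule that marks injured tubule cells, stood at 125 ± 85.3 CPM in C3-positive and 3.77 ± 1.87 CPM in C3-negative cells (SD over 8 libraries). Nfkbia, an inhibitor and target of NF-kappaB, stood at 133 ± 73.6 against 41.6 ± 10.8, and Cdkn1a, a cell cycle inhibitor, at 135 ± 80.9 against 33.9 ± 20.1. Krt8, a keratin of stressed epithelium, stood at 181 ± 130 against 65.3 ± 12.1 CPM.

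In this cluster the same direction held for most genes of both response lists. Of 13 tubule injury genes of at least 1 CPM in C3-negative cells, 12 had the higher mean in C3-positive cells, and 7 were higher in each of the 8 libraries (Vcam1, Krt8, Krt18, Spp1, Cdkn1a, Plin2 and Anxa2). Of 10 acute phase and NF-kappaB responsive genes 9 had the higher mean, and Nfkbia, Nfkb2, Birc3 and Bcl3 were higher in each library. Of all 11667 genes at that level 53.1% had the higher mean, 7.89% were higher in each library and 4.75% were higher in none. Of 13 PT markers 11 had the lower mean, and Slc34a1, Lrp2, Slc5a12, Gatm, Slc5a2 and Miox were lower in each library. Slc34a1, the phosphate transporter of the proximal tubule, stood at 2073 ± 556 CPM in C3-positive and 3358 ± 571 CPM in C3-negative cells. The C3-positive cells were the deeper ones, and the part of depth in these values was not tested.

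Cd74, the invariant chain of MHC class II, was the only immune marker of 9 that reached 1 CPM in the C3-negative cells, and stood at 1010 ± 619 CPM in C3-positive against 107 ± 67.0 CPM in C3-negative cells. The other defining immune markers were at or near 0, among them Tyrobp at 0.604 ± 1.12 and 0.254 ± 0.289 CPM, and no UMI of Rac2 was counted in either set. Ptprc could not be read here, because tubule cells that carried it had been left out as doublets. For Vcam1 the contrast was smaller in a cluster low in S1 transcripts (18.5 ± 31.3 against 1.41 ± 1.22 CPM, higher in 8 of 9 libraries), and in the other it was not seen (2.28 ± 2.47 against 2.38 ± 2.05 CPM, higher in 3 of 6 libraries). In that last cluster Cd74 still stood at 74.9 ± 69.9 against 24.6 ± 25.4 CPM and was higher in 6 of 6 libraries, and 9 of 13 PT markers had the higher mean in the C3-positive cells. Of the acute phase and injury genes 9 of 9 and 10 of 14 had the higher mean in the first of these clusters and 5 of 9 and 7 of 13 in the second, beside 42.7% and 45.5% of all genes. None was higher in every library in either cluster, beside 0.511% and 1.71% of all genes. In the second, 1 acute phase gene, Lcn2, was higher in 0 of 6 libraries (0.167 ± 0.286 against 1.42 ± 1.12 CPM), beside 4.00% of all genes.

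**Figure D2:**
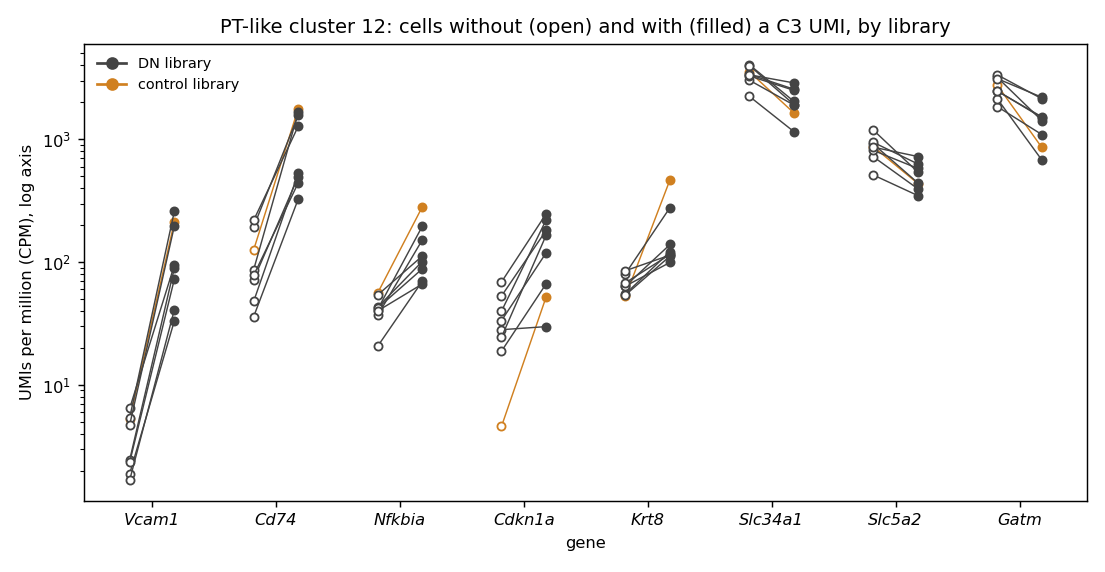
Level of selected transcripts (CPM, log axis) in C3-negative (open) and C3-positive cells (filled) of the S1-rich PT-like cluster with most C3, numbered 12. Each line joins both sets of cells in 1 of 8 libraries (7 DN, 1 control). Vcam1 goes from a mean of 3.77 to 125 CPM and Slc34a1 from 3358 to 2073.

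The same lists were also tested over whole PT-like sums, where few members were called. At 12 weeks Cdkn1a rose in DN by 3.54 ± 0.61 on the log2 scale (edgeR, adjusted p = 0.0200), 1 of 14 injury genes tested beside 0.267% of all genes of the class, and at 6 weeks Plin2, a lipid droplet protein, rose by 1.15 ± 0.22 (adjusted p = 0.0332), again 1 of 14, beside 0.389%. In the 12 deeper libraries the Cdkn1a difference was 3.48 ± 0.67 and missed the threshold (adjusted p = 0.0634). The Cdkn1a call held in 12 of 16 fits that left out 1 library, with differences from 3.07 to 4.32, and was lost without either control female, control male replicate 2 or DN male replicate 2 of 12 weeks, and the call of Plin2 held in 5 of 16 fits that left out 1 library. Of the 14 injury genes 10 lay above 0 at 6 weeks and 9 at 12 weeks. The median log2 difference of the injury list was 0.26 at 6 weeks and 0.41 at 12 weeks, and that of 12 acute phase and NF-kappaB responsive genes 0.21 and 0.42, beside 0.01 and 0.02 over all genes. None of the 12 was called in PT-like cells at either age. Over all classes 0 of 112 pairs of acute phase gene and class passed at 6 weeks with edgeR (13 before adjustment, 1 by DESeq2) and 3 of 109 at 12 weeks, each of them Lcn2, in IC-B-like, PC-like and dLOH-like cells. The injury list gave 1 of 138 and 5 of 132. Over all genes and classes 0.0732% of pairs were called at 6 weeks and 0.342% at 12 weeks. With the replicate number as a block the counts became 4 and 11 for the acute phase list and 14 and 34 for the injury list, beside 1.18% and 2.99% of all pairs. In PT-like cells, where 2.24% and 2.64% of genes were called with it, the block gave Krt8 (0.50 ± 0.11 and 0.53 ± 0.11, adjusted p = 0.0417 and 0.0242) and Plin2 (adjusted p = 0.00441 and 0.00440) as higher at both ages, and Il34 was lower in DN at 6 weeks (-3.20 ± 0.61, adjusted p = 0.0260). Summed immune markers in PT-like cells ranged from 16.5 to 115 CPM in control and from 39.3 to 283 CPM in DN libraries. Cd74 made up most of such sums in the 11 libraries with at least 20 C3-positive PT-like cells. It averaged 327 CPM in C3-positive and 48.8 CPM in C3-negative cells there, and every other immune marker averaged below 1 CPM in both. The mean of 6 of 9 immune markers was higher in DN at 6 weeks and that of 3 of 9 at 12 weeks, where the one without a UMI, Ptprc, had been set to 0 by the removal of doublets. Their part in the C3 difference was not tested.

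Outside the tubule, C3 was seen chiefly in immune-like cells. Control libraries held 66.0, 40.9, 20.5 and 29.9 CPM there at 6 weeks and 0, 34.5, 25.7 and 31.6 at 12 weeks, females first. DN libraries ranged from 11.7 to 92.2 CPM at 6 weeks and from 7.82 to 73.3 CPM at 12 weeks, the shallow female being lowest at each age. The genotypes overlapped at both ages, the DN library was the higher one in 7 of 8 pairs, and 259 UMIs from 996 cells carried these values. The log2 differences were 0.48 ± 0.59 and 0.95 ± 0.56. Over all 16 libraries the mean of immune-like cells (39.0 ± 25.2 CPM) and that of PT-like cells (35.5 ± 35.3) lay within their spread. Smooth muscle and renin-like, mitotic-like and podocyte-like cells followed at 10.4 ± 29.5, 8.83 ± 15.3 and 6.14 ± 8.08 CPM, and all other classes were at or below 4.05.

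A single library set the third place in that order. C3 in smooth muscle and renin-like cells was 118 CPM in DN male replicate 2 at 12 weeks, with 128 of the 184 UMIs of the class, and 0 to 26.3 CPM in the other 15. C4b followed it there, with 61.9 CPM in that library and 0 to 15.8 CPM elsewhere. The summed fibroblast markers (Dcn, Pdgfra, Col1a1, Col1a2, Lum and Dpt) were also highest in that library, at 1559 CPM against 88.7 to 767 CPM in the others, and Dcn alone stood at 639 CPM. The library with 767 CPM, the shallow DN female of 6 weeks, held 0 UMIs of C3 and 1 of C4b in the class. When the cells were clustered more coarsely, at resolution 0.6, the 1819 smooth muscle and renin-like cells held no more than 5.41 CPM of C3 and 5.87 CPM of C4b in any library. An unnamed cluster of 1196 cells then held up to 328 CPM of C3 and 166 CPM of C4b. Fibroblast markers gave its highest score (4.26), with mesangial markers next (3.20), but only 1 fibroblast marker met the limits. Its 10 leading genes held 1 fibroblast marker and 2 of another class, and its cells were shallow (median 0.122 of the library median). The cell type was therefore not named.

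C3 in the unnamed clusters followed the PT-like pattern. These clusters gave 1519 UMIs (12.3%), with 0.342 to 7.32 CPM in the 8 control libraries and 10.3 to 56.9 CPM in the 8 DN libraries, and the genotypes did not overlap at either age. Of genes at 5 CPM or more in these cells, 1.87% at 6 weeks and 2.53% at 12 weeks lay higher in all DN libraries. The value was highest in an unnamed cluster led by Slc7a12, Serpina1f and Apoc3 (1211 cells), with a mean of 81.5 CPM in DN and 14.9 CPM in control libraries. Since these clusters mix cell types, the makeup of the sum and the level per cell cannot be told apart.

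C4b, whose product forms part of the C3 convertase of the classical and lectin pathways, was found, like C3, mainly in PT-like cells. The gene (ENSMUSG00000073418, chr17:34728380-34743882, minus strand) had 1650 UMIs in PT-like cells, 78.2% of its total. Its close paralog C4a was not analysed here, so the C4b values, between the sexes too, may include UMIs of C4a. Control libraries held 0.890, 2.50, 6.84 and 5.08 CPM at 6 weeks and 3.99, 7.82, 9.82 and 9.41 at 12 weeks (females first). DN libraries held 0.642, 3.39, 4.41 and 2.91, and 5.99, 9.62, 19.2 and 11.7 CPM. The genotypes overlapped at both ages, and the DN library was the higher one in 1 of 4 pairs at 6 weeks and in 4 of 4 at 12 weeks. The log2 differences were -0.41 ± 0.37 and 0.52 ± 0.32.

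The rule that chose the genes did not name sex, and the sexes were compared with a test, although earlier results of these data were known. For C4b the sexes overlapped (0.642 to 9.62 CPM in females, 2.91 to 19.2 in males), female libraries averaged 4.35 ± 3.22 and male libraries 8.66 ± 5.19 CPM (SD, n = 8), and the log2 difference of female from male was -0.98 ± 0.25 (edgeR, adjusted p = 0.0229). In this class 9.96% of all genes were called between the sexes. The call was lost with the replicate number as a block (-0.87, adjusted p = 0.0589, beside 11.8% of genes) and in the 12 deeper libraries (-0.81 ± 0.29, adjusted p = 0.0622), and it held in 12 of 16 fits that left out 1 library. C3 in the same cells averaged 23.0 ± 22.5 CPM in females and 48.0 ± 42.6 in males, a difference of -0.79 ± 0.39 that did not pass the test (adjusted p = 0.228).

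Cfb, which supplies the protease of the alternative convertase, was high in the 4 shallow libraries. It lies at chr17:34856374-34862518 on the minus strand (ENSMUSG00000090231) and overlaps Gm20547 on the same strand, so that reads could be split between them. PT-like cells gave 4393 UMIs, 80.5% of its total. In these cells the 4 shallow female libraries held 99.6, 135, 71.3 and 86.0 CPM, and the 12 others 13.0 to 28.8 CPM. Females averaged 60.0 ± 44.4 and males 18.6 ± 4.89 CPM, and the log2 difference of 1.72 ± 0.47 passed the test (edgeR, adjusted p = 0.0310). Among the 12 deeper libraries the females averaged 22.1 CPM and the difference was 0.03 ± 0.13 (adjusted p = 0.898), and the blocked fit gave 1.30 (adjusted p = 0.107). The female excess was called in 5 of 16 fits that left out 1 library. Of all genes in this class, 27.3% were called between the sexes in the 12 deeper libraries. Since the shallow libraries were all female, library type and sex cannot be told apart in them. DN and control overlapped at both ages, with log2 differences of -0.44 ± 0.66 and -0.31 ± 0.64. The DN library was the higher one in 0 of 4 pairs at 6 weeks and in 1 of 4 at 12 weeks. In glomerular EC-like cells the female excess was 2.58 ± 0.68 and missed the threshold (adjusted p = 0.0873, with the block 0.0223 beside 3.24% of genes).

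**Figure D3:**
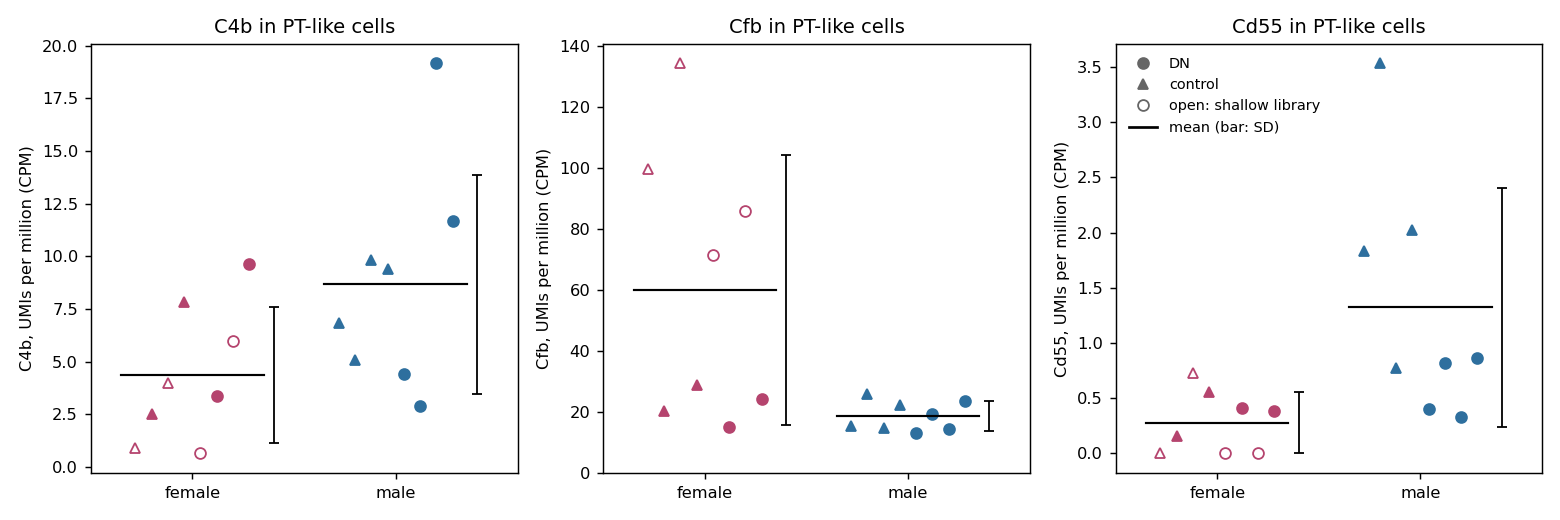
Levels of C4b, Cfb and Cd55 (CPM, vertical axes) in PT-like cells of the 8 female and 8 male libraries, with circles for DN, triangles for control, open symbols for the 4 shallow libraries, and lines and bars for the mean and SD. The shallow libraries hold the 4 Cfb values between 71.3 and 135 CPM, while the 4 deeper female libraries average 22.1 and the males 18.6.

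Cfi, the plasma protease that cuts C3b and C4b, was split between PT-like and type B intercalated (IC-B)-like cells. The gene (ENSMUSG00000058952, chr3:129835884-129875332, plus strand) had 993 UMIs in IC-B-like and 992 in PT-like cells, 40.9% of its total in each. IC-B-like libraries ranged from 1.24 to 9.86 CPM in control and from 5.17 to 14.1 in DN mice, with 12-week means of 7.84 ± 0.398 and 10.3 ± 3.90. PT-like libraries ranged from 1.38 to 7.12 and from 1.94 to 11.3 CPM. The genotypes overlapped in both classes, with log2 differences at 12 weeks of 0.47 ± 0.24 in IC-B-like and 0.79 ± 0.61 in PT-like cells. Type A intercalated-like cells held less (2.15 ± 1.30 CPM).

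The membrane inhibitors were podocyte genes first. Cd55, or decay-accelerating factor, which takes apart C3 convertases, had 4261 UMIs (39.3%) in podocyte-like cells, a class of only 1163 cells. The gene (ENSMUSG00000026399, chr1:130439027-130462744, minus strand) overlaps the antisense gene Gm16083, and whether counting used the strand was not given. Its podocyte level ranged from 254 to 466 CPM in 8 control and from 185 to 593 CPM in 7 DN libraries (1 DN library had under 10 podocyte-like cells and was left out). The next classes were immune-like (20.6 ± 24.4 CPM), IC-B-like (19.6 ± 3.42), principal cell (PC)-like (18.6 ± 3.48) and arterial EC-like cells (13.0 ± 4.73), which did not differ beyond their spread, whereas the podocyte-like mean of 415 ± 111 CPM lay well above them. The podocyte difference between DN and control was 0.38 ± 0.28 at 6 and 0.09 ± 0.26 at 12 weeks.

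In PT-like cells Cd55 was near the limit of detection, with 176 UMIs, yet lower in females. Female libraries held 0 to 0.725 CPM and male libraries 0.329 to 3.53, and the log2 difference was -1.79 ± 0.50 (edgeR, adjusted p = 0.0333). It was called with the block (-2.05, adjusted p = 0.0194) and in the 12 deeper libraries (-1.65 ± 0.55, adjusted p = 0.0473), and in 8 of 16 fits that left out 1 library. In glomerular EC-like cells, with 128 UMIs, the DN library was the higher one in 8 of 8 pairs, at means of 6.62 ± 2.34 against 3.13 ± 1.44 CPM at 6 weeks and 6.61 ± 4.85 against 2.74 ± 2.06 at 12 weeks, but the gene was too low there to enter the fit. Other cells went the other way, since the DN library was the higher one for Cd55 in 1 of 8 pairs in PT-like cells and in 0 of 8 in the unnamed clusters.

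Cd59a, which blocks the pore-forming membrane attack complex, was found in every class. The gene (ENSMUSG00000032679) lies at chr2:104095801-104115354 on the plus strand. The 250 bases before its start (chr2:104095551-104095800, plus strand, GRCm38.p6) are shown for the ISRE core match 187 to 178 bases before the start, in capitals.
Cd59a: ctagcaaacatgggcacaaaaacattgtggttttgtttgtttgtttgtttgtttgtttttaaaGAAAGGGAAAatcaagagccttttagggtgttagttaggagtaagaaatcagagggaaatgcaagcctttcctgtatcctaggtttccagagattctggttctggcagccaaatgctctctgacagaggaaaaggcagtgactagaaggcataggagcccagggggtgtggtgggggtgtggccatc
Podocyte-like cells held most, 456 to 850 CPM in 8 control and 391 to 793 CPM in 7 DN libraries. Arterial (186 ± 68.6), glomerular (132 ± 55.1) and peritubular and venous EC-like cells (122 ± 74.6 CPM) came next, with overlapping spreads, and descending loop of Henle (dLOH)-like cells held 103 ± 21.2. PT-like cells held least of the classes named for this gene, 6.56 to 18.7 CPM.

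In mesangial-like cells the DN library was the higher one for Cd59a in 2 of 4 pairs at 6 weeks, from 27.8 to 71.2 CPM in DN and from 31.9 to 59.8 in control libraries, and in 3 of 4 at 12 weeks. At 12 weeks control libraries held 45.3, 48.7, 31.6 and 30.8 CPM and DN libraries 52.3, 48.5, 61.1 and 50.3, overlapping in 1 value. Between the sexes, PT-like cells averaged 13.5 ± 2.73 CPM in females and 9.10 ± 2.17 in males (log2 0.47 ± 0.20, adjusted p = 0.164, with the block 0.0184). Of the paralogs, Cd59b was highest in podocyte-like cells too (53.0 CPM), and Cd55b had 50 UMIs in all.

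**Figure D4:**
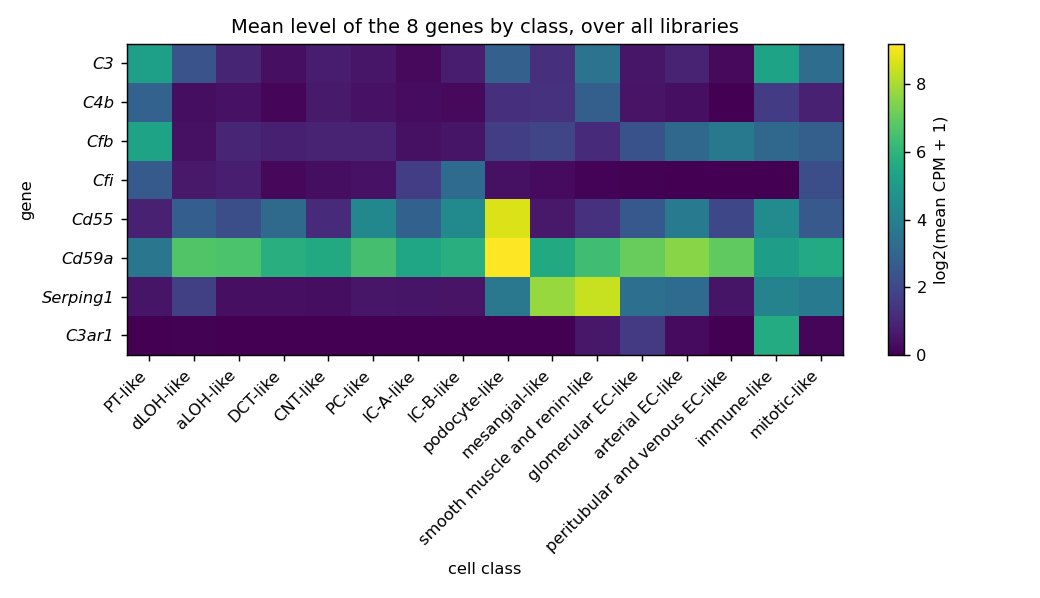
Mean level of each of the 8 genes (vertical axis) in each named cell class (horizontal axis) over all libraries, as log2(mean CPM + 1) by colour. Cd55 and Cd59a are highest in podocyte-like cells (415 and 584 CPM), Serping1 in smooth muscle and renin-like cells (345, with 217 in mesangial-like cells), and C3ar1 in immune-like cells (49.9).

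Serping1, the C1 inhibitor that stops the proteases of the classical and lectin pathways, was found mainly in the contractile cells of glomerulus and vessels. In both of those classes the DN library was the higher one of every pair, and the share of all genes that did so is not given. The gene (ENSMUSG00000023224, chr2:84765387-84775444, minus strand) had 4862 UMIs (41.8%) in mesangial-like and 4093 (35.2%) in smooth muscle and renin-like cells. Mesangial-like control libraries held 249, 212, 162 and 139 CPM at 6 weeks and 206, 156, 143 and 154 at 12 weeks, females first. The DN libraries held 304, 248, 389 and 229, and 252, 206, 216 and 205 CPM. The shallow control females reached into the DN range, above 2 of the 4 DN libraries at 6 weeks, and the ranges met at 12 weeks.

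The mesangial log2 difference was 0.68 ± 0.23 at 6 weeks and 0.48 ± 0.22 at 12 weeks. With the replicate number as a block these were 0.69 ± 0.15 and 0.49 ± 0.13. The summed smooth muscle and renin markers in mesangial-like cells ran from 1440 to 2459 CPM in DN and from 902 to 1593 CPM in control libraries at 6 weeks, and from 1392 to 1859 and from 955 to 1399 CPM at 12 weeks. Of these 9 markers 5 had the higher mean in DN at each age, none was at 0, and their part in the Serping1 values was not tested. Smooth muscle and renin-like control libraries held 493, 273, 203 and 242 CPM at 6 weeks and 360, 210, 238 and 280 at 12 weeks. Their DN counterparts held 563, 336, 288 and 318, and 439, 292, 435 and 548 CPM, overlapping the controls at both ages.

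There the log2 difference was 0.40 ± 0.25 at 6 weeks and 0.75 ± 0.26 at 12 weeks. The 12-week value was 0.77 ± 0.13 with the block and 0.83 ± 0.17 in the 12 deeper libraries. In this class the mean of 6 of 6 fibroblast markers and of 8 of 9 smooth muscle and renin markers was also higher in DN at 12 weeks. Summed, the former ran from 143 to 1559 CPM in DN and from 88.7 to 325 CPM in control libraries of that age, and the latter from 40068 to 73550 and from 36292 to 49067 CPM. Their part in the Serping1 values was not tested. In the coarser clustering, where the class held little C3, Serping1 averaged 369 CPM in DN and 260 CPM in control libraries. Other classes averaged 16.4 CPM or less, and female and male libraries did not differ beyond the threshold in either class (adjusted p = 0.642 and 0.801).

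**Figure D5:**
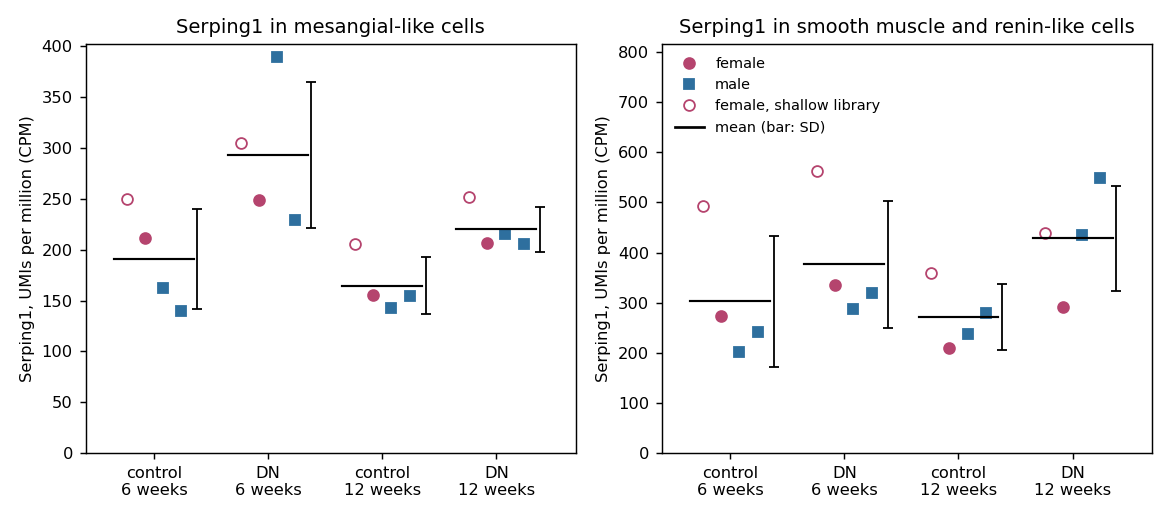
Serping1 level (CPM, vertical axes) in mesangial-like (left) and smooth muscle and renin-like cells (right) of each library, by genotype and age, with lines for the mean and SD (n = 4) and open symbols for the 4 shallow libraries. In mesangial-like cells at 12 weeks the DN libraries lie between 205 and 252 CPM and the control libraries between 143 and 206.

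C3ar1, the receptor through which C3a acts on myeloid cells, was counted mainly in immune-like cells. The gene (ENSMUSG00000040552, chr6:122847138-122856161, minus strand) had 263 UMIs there, 75.1% of its total. Control libraries held 16.5, 3.40, 47.8 and 71.9 CPM at 6 weeks and 48.8, 0, 75.2 and 28.1 at 12 weeks, and DN libraries 141, 122, 20.7 and 38.7, and 78.2, 8.14, 42.9 and 55.0. At 6 weeks both DN females lay above both DN males, and the groups overlapped at both ages.

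The DN effect in females less that in males was 3.27 ± 1.10 on the log2 scale and did not pass the test (edgeR, adjusted p = 1.00). In the largest immune-like cluster (564 cells) the mean was 116 ± 91.7 CPM in DN and 68.6 ± 54.5 in control libraries. Glomerular EC-like cells gave another 54 UMIs (15.4%), with 0 to 2.28 CPM in control and 1.28 to 5.42 CPM in DN libraries, the DN library being the higher one in 8 of 8 pairs. The 6-week groups did not overlap there (0 to 1.93 against 2.13 to 3.58 CPM), but most libraries rested on a handful of UMIs and the gene did not enter the fit. Of genes of 5 CPM or more in that class 0.699% lay apart at 6 weeks with DN higher. C3ar1, at a mean of 1.93 CPM, was not among them, and the share for genes as low is not given. Summed immune markers in glomerular EC-like cells ran from 8.65 to 19.3 CPM in control and from 10.8 to 52.0 CPM in DN libraries at 6 weeks, and from 0 to 20.5 and from 10.8 to 31.9 CPM at 12 weeks. The mean of 6 of 9 and of 5 of 9 of them was higher in DN, none was at 0 throughout, and their part in the C3ar1 values was not tested.

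Counted over genes and classes, the 8 genes gave 45 tested pairs of gene and class at 6 weeks and 44 at 12 weeks. Among pairs at 5 CPM or more with 4 libraries on each side, 1 of 43 at 6 weeks and 4 of 49 at 12 weeks did not overlap between the genotypes. They were C3 in unnamed clusters at both ages and, at 12 weeks, C3 in PT-like and in mitotic-like cells and Cd59a in unnamed clusters, the last with DN below control. For Cd59a in the unnamed clusters the DN library was the higher one in 0 of 8 pairs. At 12 weeks 2.53% and 3.42% of genes in the unnamed clusters lay higher and lower, and 2.02% lay higher in mitotic-like and 1.34% in PT-like cells. In the unnamed clusters at 6 weeks 1.87% lay higher. No share pooled over all classes is given beside these counts.

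Between the sexes 3 of 45 pairs were called (C4b, Cfb and Cd55), beside 1.13% of all pairs. All 3 were among the 6 tested in PT-like cells, where 9.96% of all genes were called. Of the 3, only Cd55 was also called with the replicate block and in the 12 deeper libraries. The DN effect differed between females and males in 0 of 45 (edgeR, with 3 at an unadjusted p under 0.05, and 0 by DESeq2), beside 0.00924% and 0.0455% of all pairs. With 2 libraries of each sex, genotype and age this comparison is imprecise, and the lack of calls does not show that the effects were alike. For C3 in PT-like cells the female effect less the male effect was -1.21 ± 0.74 (adjusted p = 1.00).

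The rest of the complement system was followed in 50 further genes, of which 49 had a UMI and 16 exceeded 50 CPM in some class. C1qa, C1qb and C1qc, the recognition chains of the classical pathway, stood at 944, 745 and 563 CPM in immune-like cells, the class where C5ar1, Itgam and Itgb2 were also highest (112, 87.5 and 187 CPM). C1s1, a protease of the classical pathway, was highest in mesangial-like cells (231 CPM). Clu, an inhibitor of the terminal complex, was highest in connecting tubule-like cells (1728 CPM), Colec12 in podocyte-like (166), Cd93 in arterial EC-like (770), Cr1l in glomerular EC-like (192), Susd4 in dLOH-like (59.4), and Cpn1 and C1qbp in PT-like cells (104 and 193 CPM).

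Between DN and control, 0 of 128 pairs of these other genes and classes passed the edgeR test at 6 weeks (10 had an unadjusted p under 0.05, and DESeq2 called 0, beside 0.0732% of all pairs with edgeR and 0.231% with DESeq2) and 2 of 125 at 12 weeks, 1 in each direction, beside 0.342%, among them C1ra in mesangial-like cells. C1ra, the protease that starts the classical cascade, rose by 0.95 ± 0.19 on the log2 scale (edgeR, adjusted p = 0.00756, beside 3% of genes called in the class), with 27.9, 39.1, 27.2 and 32.5 CPM in control and 66.5, 71.1, 51.4 and 56.3 CPM in DN libraries at 12 weeks. It held in 15 of 16 fits that left out 1 library, and at 6 weeks the difference was 0.81 ± 0.21 (adjusted p = 0.140, with the block 0.0177 beside 3.98%). The mesangial DN libraries thus lay above all controls in C1ra at 12 weeks, in a class where 3.78% of genes did so. The smooth muscle and renin markers given for Serping1 moved in the same mesangial-like sums, C1ra and C1s1 had their second highest level in smooth muscle and renin-like cells (35.9 and 116 CPM), and the part of these markers in both genes was not tested.

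C1s1, the partner protease of C1r, differed by 0.46 ± 0.16 in mesangial-like cells at 12 weeks (adjusted p = 0.185, with the block 0.00253 beside 12.7%). Colec12, a scavenger receptor with a collectin domain, differed by 2.32 ± 0.51 in smooth muscle and renin-like cells at that age (adjusted p = 0.0508), and was called with the block (0.00265, beside 4.16%) and in the 12 deeper libraries (0.00677, beside 1.34%). The fibroblast markers given for Serping1, 6 of 6 with the higher mean in DN, were higher in the same class and age, and their part in the Colec12 value was not tested. With the block 7 pairs were called at 6 weeks and 12 at 12 weeks, beside 1.18% and 2.99% of all pairs. Among them was Clu in podocyte-like cells, at 1.82 ± 0.34 and 1.73 ± 0.31 (edgeR, adjusted p = 9.42e-04 and 3.06e-04). Clu was not called in podocyte-like cells alone. The block also called it in type A intercalated-like cells at both ages and in ascending loop of Henle-like cells at 6 weeks. At 12 weeks PC-like and mesangial-like cells were added. Other calls were in C1ra, C1s1, Cd93, Colec12 and Cr1l.

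In PT-like cells none of the 16 other complement genes tested was called at either age, and their median log2 difference was -0.04 at 6 weeks and -0.06 at 12 weeks. Between the sexes, C8a, a chain of the membrane attack complex, differed by -4.21 ± 0.76 between female and male PT-like cells (edgeR, adjusted p = 0.00275). Female libraries averaged 0.116 ± 0.131 CPM and male libraries 3.48 ± 2.21, and the call held in each of 16 fits that left out 1 library, with log2 differences from -6.50 (without DN female replicate 2 at 6 weeks) to -3.70. It was 1 of 128 pairs called, beside 1.13% of all pairs and 9.96% of the genes in PT-like cells, and Cd46, a cofactor of Cfi, missed the threshold (0.87 ± 0.28, adjusted p = 0.0640) but passed in the 12 deeper libraries (adjusted p = 0.0110). Of the tubule injury and acute phase lists, Il34 (-3.13 ± 0.53, adjusted p = 0.00168), Bcl3 (-1.63 ± 0.32, 0.00459) and Krt8 (-0.54 ± 0.14, 0.0205) were lower and Plin2 (0.67 ± 0.15, 0.0118) and Spp1 (1.66 ± 0.49, 0.0448) higher in females. The Spp1 difference was 1.37 ± 0.54 in the 12 deeper libraries, where it missed the threshold (adjusted p = 0.0851), and the call held in 5 of 16 fits that left out 1 library.

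The pattern of each gene over 250 sums of library and class was also compared with 11253 genes of at least 5 CPM, by Pearson correlation of log2(CPM + 1). These sums share libraries, depth and cell classes, so the values only describe likeness. March1 (r = 0.669), Msrb1 (0.656) and Bcl11b (0.656) were most like C3. For C4b they were Dpep1 (0.548), Fam213b (0.492) and C3 itself (0.488). Serping1 was closest to Myl9 (0.920) and C3ar1 to Lilra5 (0.916), while the highest value was 0.664 for Cfb (Ass1), 0.742 for Cfi (Acot3), 0.707 for Cd55 (Wipf3) and 0.816 for Cd59a (Ormdl3).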

How the data were processed

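Single-cell RNA-seq was made from 16 mice. The authors deposited raw UMI counts per gene and barcode, made by their methods and processing notes with Cell Ranger 3.0.2 on mm10; whether counting used the strand is not given in the sources used here. The study's barcode filter was applied (200 to 7000 genes, no more than 50% mitochondrial), which left 94436 of 116439. Cells were clustered (2000 variable genes per library, 30 principal components, Harmony-type alignment, Leiden resolution 1.0, leidenalg 0.10.2) and classes named from fixed markers, where at least 3 markers led and no second class was near. The fixed rules left 11 clusters unnamed. Doublets were left out by markers of the opposite lineage (8226 cells, 8.71%), then 1014 non-tubular cells with over 20% mitochondrial counts, which left 85196.

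Counts were summed per library and class (at least 10 cells) and tested with edgeR 4.0.16 (quasi-likelihood, TMM, filterByExpr, R 4.3.3), with terms for age and, nested in it, for genotype and sex, and Benjamini-Hochberg adjustment over all genes of a class at 0.05. Cells were not replicates. The study tested single cells instead. Depth limits precision: a sum of few UMIs carries counting error that the SD between mice includes. Alternatives were DESeq2 1.42.0, no low-count filter, a replicate block, Scrublet (1857 cells, 1.97%), the 12 deeper libraries, at least 30 cells, resolution 0.6, TMM scaling of levels and leaving out each library. Same-numbered DN and control libraries of the same sex and age deviated together (r over 0.1 in every pair of 12 of 13 classes, 0.0744 to 0.746). The numbers were therefore treated as pairs in the blocked fits, though not in the main fit. For the test between the sexes the block joined female and male libraries of the same genotype, age and number. That pairing was not examined, and each replicate 1 block there set a shallow female library beside a deeper male one. The fits were tested on simulated data.

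The 8 genes and all lists were chosen with earlier results of these data known. All 8 were to be named in classes where they reach 5 CPM or are called, but not every such class is named. Left out were, among others, Cfb in peritubular and venous EC-like cells (12.1 ± 25.0 CPM) and Cd55 in distal convoluted tubule-like cells (8.03 ± 3.52 CPM). Other complement genes are named where called or, for their highest class, above 50 CPM. Injury and acute phase genes are named where called in PT-like cells, and for likeness the genes with the highest r. Items named beyond this were chosen after their values were seen. Among them are Cd46, C1s1, Colec12, Cd55b, and the genes compared between C3-positive and C3-negative cells. Cd55, Cfb and C3ar1 in glomerular EC-like cells, all below 5 CPM on average, are such items too. Of 51 other complement symbols 50 were found, of 21 acute phase symbols 21 and of 18 injury symbols 18. Sequences came from a RefSeq promoter table, which matched 4 of the 8 genes. A marker and a complement gene that the counts include are not reported here.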

Additional observations from a re-analysis of the deposited data

Results flagged for a closer look

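In groups of 4 libraries of a genotype and age, 172 were searched for a library that stood far from the other 3, and 27 were found. Chance flags about 1 in 20 such groups of normally distributed values, a rate that does not hold for the 4 of the 27 in which only 1 of the 4 libraries had a UMI. It need not hold for low counts either, or for groups that mix both sexes and a shallow library, as these do. Each value below is in CPM and the range of the other 3 libraries follows it.

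Cfb gave 9 of the 27. In PT-like cells the shallow female library stood apart in all 4 groups, at 99.6 (15.4 to 26.0) and 135 (14.8 to 28.8) in control mice of 6 and 12 weeks and at 71.3 (13.0 to 19.3) and 86.0 (14.5 to 24.1) in DN mice. The same shallow libraries stood apart for Cfb in arterial EC-like cells of control mice at 12 weeks (33.9 against 5.53 to 9.21), immune-like cells of control mice at 6 weeks (99.0 against 0 to 5.99) and mitotic-like cells of DN mice at 6 weeks (32.2 against 2.03 to 2.80) and 12 weeks (19.2 against 1.05 to 3.27). In immune-like cells of DN mice at 12 weeks 1 male library held 1.62 and the others 0.

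C3 was high in PT-like and podocyte-like cells of the shallow control female at 12 weeks, at 15.6 (4.05 to 5.74) and 22.8 (0 to 3.42). In smooth muscle and renin-like cells it stood apart at 1.82 in control male replicate 2 at 6 weeks (others 0), at 26.3 in DN female replicate 2 at 6 weeks (0 to 1.42) and at 118 in DN male replicate 2 at 12 weeks (0 to 10.7). C4b in that class stood apart at 5.79 in control male replicate 1 and at 61.9 in DN male replicate 2, both at 12 weeks, with 0 in the others.

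Cd59a stood apart in 7 groups. The values were 102 in connecting tubule-like cells (39.8 to 41.7) and 258 in glomerular EC-like cells (97.1 to 119) of the shallow control female at 6 weeks, 131 in glomerular EC-like cells of the shallow DN female at 12 weeks (108 to 108), and 88.8 in mitotic-like cells of the shallow control female at 12 weeks (38.1 to 43.8). In deeper libraries they were 106 in PC-like cells (74.0 to 77.1) and, on the low side, 463 in podocyte-like cells (629 to 659) of control males at 12 weeks, and 66.9 in ascending loop of Henle-like cells of DN female replicate 2 at 6 weeks (99.3 to 104). Cd55 was 19.1 in arterial EC-like cells of the same DN female (12.1 to 13.2) and 15.2 in dLOH-like cells of control female replicate 2 at 12 weeks (3.85 to 4.86). Serping1 was 16.5 in arterial EC-like cells of DN male replicate 2 at 12 weeks (4.45 to 5.06) and 39.1 in podocyte-like cells of the shallow control female at 12 weeks (3.42 to 6.64).

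Cells of unnamed clusters, which entered no test, held a mean of 35.4 CPM of C3 in DN mice at 6 weeks and 36.0 at 12 weeks, above every control library.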

How the results depend on the processing

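The 8 genes were chosen from their values between genotypes, so that their counts between DN and control only describe the fits and support nothing. For these genes, pairs of gene and class called between DN and control went from 0 at 6 weeks to 1 with DESeq2, 2 with the replicate block and 4 without the low-count filter, and from 1 at 12 weeks to 4 with the block, 4 without the filter, 2 with Scrublet and 2 in the 12 deeper libraries. Between the sexes 3 became 9 without the filter, 4 with at least 30 cells and 1 in the 12 deeper libraries, and for the DN effect between the sexes 0 became 1 without the filter. For the other complement genes 0 at 6 weeks became 5 without the filter and 7 with the block, and 2 at 12 weeks became 5 with DESeq2, 8 without the filter, 12 with the block and 3 each with Scrublet and in the 12 deeper libraries. Between the sexes 1 became 4 with DESeq2, 8 without the filter, 2 with the block, 2 with Scrublet, 3 in the 12 deeper libraries and 2 with at least 30 cells. Leaving out each library gave 0 to 0, 0 to 1, 0 to 4 and 0 to 0 for the 8 genes in these 4 comparisons, and 0 to 0, 0 to 3 and 1 to 2 for the first 3 in the others. Over all genes the block raised calls from 111 to 1789 at 6 weeks, from 505 to 4406 at 12 weeks, from 1714 to 2556 between the sexes and from 14 to 298 for the DN effect between them, DESeq2 gave 350, 1128, 4387 and 69, and the 12 deeper libraries 194, 829, 3750 and 16. The pairs tested numbered 151593, 147547, 151593 and 151593, and in the 12 deeper libraries 160463, 155141, 155141 and 155141. No share over all genes is given for the fits without the filter, with Scrublet or with at least 30 cells. Without the filter the pairs tested between the sexes rose from 45 to 118 for the 8 genes and from 128 to 508 for the others. Those counts therefore cannot be set beside the main ones. Between the sexes the block ended the calls of C4b and Cfb in PT-like cells and added Cd59a there and Cfb in glomerular EC-like cells, and it changed no other call of the 8 genes in that comparison. Cfi in IC-B-like cells of control mice at 12 weeks averaged 6.97 CPM with Scrublet (7.84 with lineage markers). The share of PT-like cells with C3 at 12 weeks was 2.72% in control and 23.9% in DN mice without thinning, and 0.269% and 2.70% at 500 UMIs. With 100 in place of 250 bases 1 promoter held a pattern in place of 2. The causes were not tested. Depth limits values that rest on few UMIs, such as those of Cd55 in PT-like and C3ar1 in glomerular EC-like cells, and the 4 shallow libraries, all female, limit each comparison of the sexes.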
